A study of Homo sapiens with 10 samples.

Results

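SR proteins are splicing factors that carry a stretch rich in serine and arginine dipeptides and that help the spliceosome choose exons. CLK1 is a nuclear kinase that phosphorylates this stretch and so sets where SR proteins sit and how active they are. Many genes of this family also limit their own output through splicing: including a poison exon, which carries an early stop codon, sends the transcript to nonsense-mediated decay, and an intron left in the transcript can hold it in the nucleus. The 10 genes described here are SRSF1, SRSF2, SRSF3, SRSF5, SRSF6, SRSF7 and SRSF11, the SR-like activators TRA2A and TRA2B, and CLK1. They were taken by symbol from a named list and not by a cut on their values, but the list was chosen with earlier results of these data known. In the NB4 table they were 10 of 21958 genes and held 111 of 121005 listed transcripts, each kept apart by its Ensembl identifier. In the Kasumi-1 table, which has 1 value per row, 5 of the 10 were found among 28946 features: SRSF1, SRSF2, SRSF6, TRA2A and CLK1. The other five were not analysed in that line.

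NB4 and Kasumi-1 leukaemia cells were compared after 48 h with JOA at 1 µM or with a control treatment. JOA is named only by this code. NB4, an acute promyelocytic leukaemia line that carries the PML-RARA fusion, had 2 JOA and 2 control libraries. Kasumi-1, an acute myeloid leukaemia line that carries the RUNX1-RUNX1T1 fusion, had 3 JOA and 3 control libraries. The source label of the treated NB4 libraries names I13, whereas their title and agent labels name JOA, and they were taken as JOA. The labels do not say that replicates were separate cultures, and the p-values then reflect only how far these libraries differ, which may be technical. The myeloid marker MPO was high in both lines, at 5289 to 6096 FPKM in the Kasumi-1 libraries and at 5886 and 4679 TPM in JOA against 7983 and 7693 TPM in control NB4 libraries. RUNX1T1 was detected in Kasumi-1 (17.1 to 20.2 FPKM) and was at or near 0 in NB4, and KIT was at 164 to 322 FPKM in Kasumi-1 and at or near 1 TPM in NB4. Among markers of other cell types in NB4, CD3E and COL1A1 had means of 0.142 TPM or less in each group, and EPCAM was at 15.1 TPM in JOA and 12.6 TPM in control. EPCAM in Kasumi-1 was at 36.9 FPKM in JOA and 41.0 FPKM in control. Another of the NB4 markers, the granule protease ELANE, was near 0 (0.244 TPM in JOA, 1.29 TPM in control), and the third, AZU1, was at 124 TPM in JOA and 180 TPM in control. In bulk RNA, fewer cells of a kind and less RNA per cell cannot be told apart.

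An added internal exon holds the stop codon in 9 of the 21 decay transcripts listed, which belong to 5 of the 10 genes. The 3 most abundant are shown from the first base of the added exon to its stop codon, which is in capitals, because these stretches separate the decay isoform from the coding one. They were taken from GENCODE v29 transcript sequences on GRCh38. The SRSF6 stretch lies at chr20:43459153-43459304 on the plus strand, the TRA2B stretch at chr3:185931772-185931852 on the minus strand and the SRSF3 stretch at chr6:36599821-36599854 on the plus strand. The whole added exons are 268, 276 and 456 bases long in SRSF6-202, TRA2B-206 and SRSF3-203, in that order.
SRSF6-202: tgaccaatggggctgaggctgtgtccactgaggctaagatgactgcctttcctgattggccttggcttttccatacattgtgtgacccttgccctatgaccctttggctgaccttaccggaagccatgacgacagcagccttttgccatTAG
TRA2B-206: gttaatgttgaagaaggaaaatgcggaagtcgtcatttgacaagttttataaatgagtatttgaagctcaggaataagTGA
SRSF3-203: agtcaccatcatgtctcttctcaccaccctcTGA

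The leading decay isoforms of CLK1 and SRSF7 reach an early stop by other routes. The leading decay isoform of CLK1, CLK1-204, differs from the leading coding isoform, CLK1-201, by skipping exon 4, which has 91 bases and lies at chr2:200860125-200860215 on the minus strand. The shift of the reading frame ends 21 bases into the following exon, at chr2:200859726-200859746. The leading decay isoform of SRSF7, SRSF7-208, keeps intron 3, which is 875 bases long, and its frame ends 13 bases into that intron, at chr2:38749516-38749528 on the minus strand. The first sequence is the exon that CLK1-204 leaves out, and those of CLK1-204 and SRSF7-208 run to the early stop codon, which is in capitals.
CLK1 exon 4: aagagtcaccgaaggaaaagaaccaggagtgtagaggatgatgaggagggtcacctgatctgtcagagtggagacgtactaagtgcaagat
CLK1-204: atgaaattgttgatacttTAG
SRSF7-208: gtatttatttTAA
In each of these 5 decay isoforms the stop codon lies well upstream of the last exon junction, by 534 bases in SRSF6-202, 1015 in TRA2B-206, 548 in SRSF3-203, 809 in CLK1-204 and 1138 in SRSF7-208. In the coding isoform CLK1-201 the stop codon lies past the last junction.

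In NB4 cells most of these genes, though not SRSF1 and SRSF2, carried much of their RNA outside coding isoforms, with or without JOA. A class share is the TPM of a gene's transcripts of that annotated class divided by the gene's whole TPM. The median coding share of the 10 genes was 51.4%, against 77.3% over the 8196 genes for which a coding share was tested. The median retained-intron share was 26.2% over the 8 genes that have such transcripts, against 12.8% over 5809 genes, and the median decay share was 11.4% over all 10, against 5.29% over 4175 genes. The middle part of all genes, from the lower to the upper quartile, ran from 55.9 to 91.4% for coding, 4.33 to 28.0% for retained-intron and 1.46 to 14.7% for decay shares, so the members' median lay below it for coding and inside it for the other classes. The genes of each background have transcripts of the class in question and another class, so these medians describe annotation as well as splicing.

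The genes fell into several patterns. SRSF1 and SRSF2, both general activators of exon inclusion, were mostly coding by annotated class, at 89.8% and 90.1% of their TPM over the 4 libraries. In SRSF2, 50.6% of the TPM was SRSF2-201, a coding record of 572 bases with no stop codon annotated. Another 10.9% was SRSF2-203, classed as coding, which keeps intron 2 (995 bases) of the coding SRSF2-202. SRSF6, which has a coding and a decay isoform only, had 72.7% of its TPM in the decay isoform SRSF6-202, and 70.2 to 76.1% in single libraries. SRSF7, known for a role in mRNA export as well as splicing, had 48.1% in decay isoforms, mainly SRSF7-208. By annotated class, TRA2A was the member with the highest retained-intron share, 50.3%, followed by CLK1 at 33.3%, SRSF3 at 32.6% and TRA2B at 28.6%. The libraries of TRA2A ranged from 38.1 to 58.0% and those of CLK1 from 24.6 to 41.0%, so this order does not hold beyond the spread between libraries except that TRA2A lay above SRSF3 and TRA2B. SRSF11 had no retained-intron transcript listed and 42.7% in noncoding transcripts of other classes.

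Retained-intron records are short, with a median of 689 bases over the 35 listed for these genes, against 1843 for their coding and 1465 for their decay transcripts. Of the 35, 11 hold at least 1 whole intron of the gene's leading coding isoform, and the rest hold none or part of one. In TRA2A only TRA2A-207 does, at 1.71% of the gene's TPM. In SRSF3 only SRSF3-205 does, at 0.45%, and in TRA2B only TRA2B-209, at 1.40%. The larger records TRA2A-209 (27.8%) and SRSF3-206 (20.6%) hold no whole intron. The class share is therefore not the share of RNA that keeps a whole intron. Weighting each TPM by transcript length put the decay share of SRSF6 at 51.0% and raised its coding share to 49.1%. The same weighting gave a retained-intron share of 25.8% in SRSF3 and 44.2% in TRA2A, and 37.7% in CLK1. It gave 29.6% in TRA2B and 36.0% in SRSF5, which had 23.8% by TPM. With the weighting, SRSF5 lay above SRSF3 and TRA2B. In SRSF5, an SR protein that binds exonic enhancers, the retained-intron record SRSF5-212 keeps the whole of intron 5 (1215 bases) and held 17.6% of the gene's TPM. SRSF7-208, which keeps intron 3 but is annotated as a decay transcript, held 36.4% of its gene. In CLK1, CLK1-210 keeps introns 3 and 4 (1400 bases together), which flank the exon 4 that CLK1-204 skips, and held 14.4%.

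**Figure D1:**
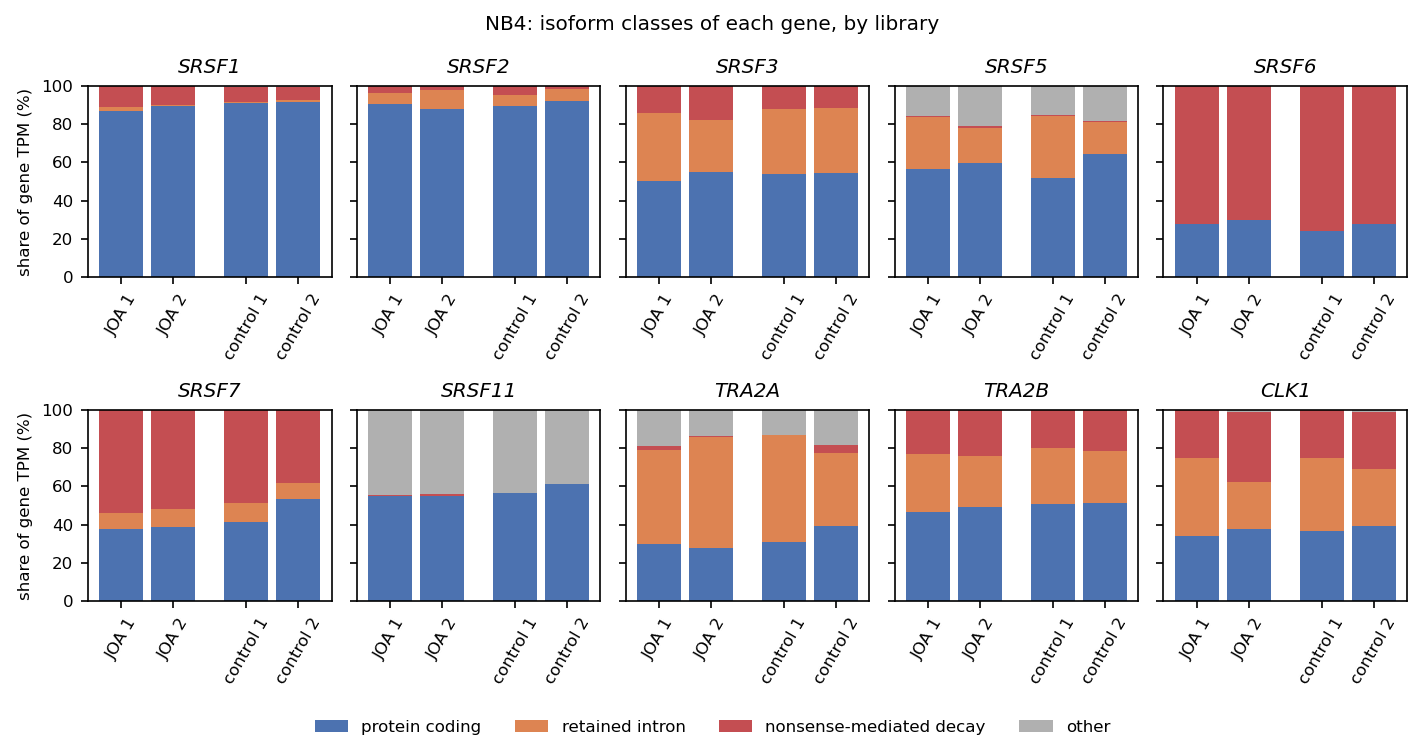
Share of each gene's TPM (y axis, %) in protein-coding, retained-intron, nonsense-mediated decay and other transcripts, for the 2 JOA and 2 control NB4 libraries, 1 panel per gene. SRSF6 is mostly decay isoform in every library (70.2 to 76.1%), SRSF1 and SRSF2 are mostly coding, and the retained-intron share of CLK1 and TRA2A differs widely between libraries of the same treatment.

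The first question was whether JOA moved RNA between these classes in NB4. No member's share passed the test in any class (limma on the shares, adjusted p under 0.05), and no gene did in the whole table: 0 of 4175 decay shares, 0 of 8196 coding shares and 0 of 5809 retained-intron shares (0% called in each). At an unadjusted p under 0.05, the decay shares of 2 of the 10 members and of 289 genes in all (6.92%) passed. No member passed at that level for the coding or the retained-intron share, where 6.36% and 6.04% of all genes did.

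The 2 members with an unadjusted p under 0.05 were SRSF1 and TRA2B. The decay share of SRSF1 was 11.1% and 9.78% in JOA libraries, against 7.90% and 6.80% in control libraries. Both JOA libraries lay above both controls. The difference was 3.06 percentage points (SE 0.81, limma adjusted p = 0.717). For TRA2B, which binds GAA-rich exon enhancers, the decay share was 22.9% and 23.9% in JOA, against 19.98% and 21.3% in control. The groups again did not overlap, and the difference was 2.81 points (SE 0.80, limma adjusted p = 0.717).

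SRSF3, SRSF7 and SRSF11 also had a higher decay share in both JOA libraries. SRSF3, the smallest SR protein, had 14.3% and 17.7% in JOA against 12.2% and 11.7% in control (4.07 points, SE 1.46, limma adjusted p = 0.767), and the difference was 2.41 points without the second JOA library. SRSF7 had 53.8% and 51.9% in JOA against 48.7% and 38.0% in control (9.49 points, SE 4.54, limma adjusted p = 0.852). Its 2 controls differed from each other by more than the lower JOA value differed from the higher control, and the difference was 4.17 points without the second control and 14.8 points without the first. SRSF11 had under 1% in every library. The decay share was thus higher in both JOA libraries for 5 of the 10 genes and lower in both for 0, against 15.6% and 16.4% of all 4175 genes.

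The other five members overlapped between treatments. SRSF6 had a decay share of 72.5% and 70.2% in JOA against 76.1% and 72.1% in control (-2.77 points, SE 1.98, limma adjusted p = 0.925), the opposite sign to SRSF1 and TRA2B. CLK1 had 25.2% and 36.3% in JOA against 25.2% and 29.8% in control (3.26 points, SE 5.06, limma adjusted p = 0.978). One JOA library stood at the level of the lower control and the other was the highest of the 4. SRSF2, SRSF5 and TRA2A had mean decay shares of 3.22% or less in each treatment. Over the 10 genes the median difference was 1.59 points, against 0 over all 4175 genes.

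The shares of a gene sum to 100%, so its coding share is not independent of the others. The coding share was lower in both JOA libraries for SRSF1, SRSF7, SRSF11, TRA2A and TRA2B, 5 of 10 genes, against 14.5% of all 8196 genes, and higher in both for 0, against 17.9%. SRSF7 had 37.7% and 38.5% in JOA against 41.6% and 53.2% in control (-9.30 points, SE 4.71, limma adjusted p = 0.877). TRA2A had 29.9% and 27.7% in JOA against 30.9% and 39.3% in control (-6.29 points, SE 3.60, limma adjusted p = 0.886). In both genes the second control library was the one that stood furthest from the rest. Without it the difference was -3.53 points in SRSF7 and -2.12 points in TRA2A, and without the first control it was -15.1 and -10.5 points. The median difference over the 10 genes was -2.61 points, against 0.15 over all genes.

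Retained-intron shares overlapped between the treatments in all 8 genes tested, while 14.3% of all genes were higher and 17.2% lower in both JOA libraries. The share in CLK1 was 41.0% and 24.6% in JOA against 38.0% and 29.7% in control (-1.05 points, SE 7.52, limma adjusted p = 1). The first library of each treatment was the higher one. In TRA2A it was 49.1% and 58.0% in JOA against 55.9% and 38.1% in control, and in SRSF5 27.4% and 18.6% in JOA against 32.3% and 16.7% in control. The median difference was 0.01 points over the 8 genes and -0.07 over all 5809. Over the whole NB4 libraries, decay transcripts held 2.87% and 2.93% of the TPM in JOA against 2.73% and 2.70% in control, and retained-intron transcripts 8.60% and 8.37% in JOA against 8.58% and 7.99% in control. The part of these library-wide values in the members' shares was not tested.

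**Figure D2:**
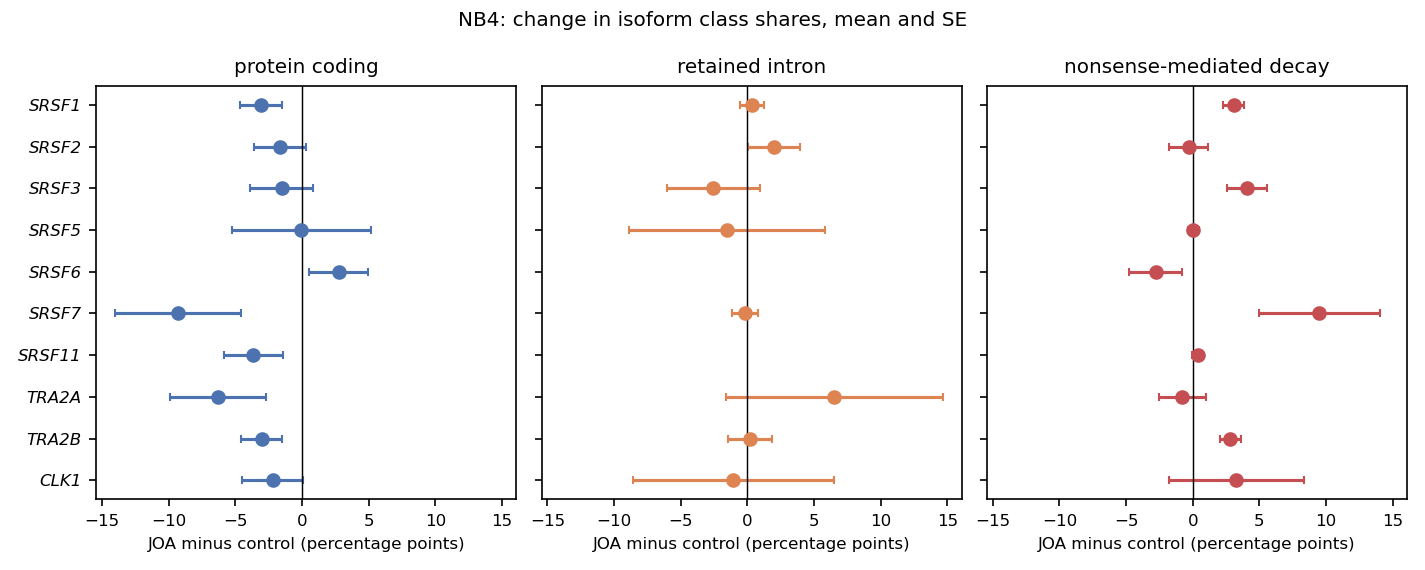
Difference in class share, JOA minus control, in percentage points (x axis) for each gene (y axis) in NB4, with points for the difference of means of 2 libraries each and bars for the SE from limma. Decay differences of SRSF1, SRSF3, SRSF7 and TRA2B lie right of 0 and that of SRSF6 left of it, and the bars of SRSF5, TRA2A and CLK1 are wide for retained introns; a gene without transcripts of a class has no point.

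Single transcripts were then compared. No transcript passed the test, among the 97 of 111 member transcripts tested or in the whole table (0 of 51643, 0% called, limma adjusted p under 0.05), and 8 member transcripts and 3469 in all (6.72%) had an unadjusted p under 0.05. Of the 21 decay transcripts, 16 from 9 genes had a mean of at least 1 TPM over the 4 libraries. Among these 16, 7 were higher in both JOA libraries and 0 lower in both, against 22.5% and 13.0% of the 3546 decay transcripts at that level in the whole table. Among 32 coding transcripts of the members, 7 were higher and 6 lower in both JOA libraries (27.4% and 12.7% of all coding transcripts), and among 31 retained-intron transcripts 5 were higher and 3 lower (21.4% and 14.0%). Of 14 transcripts of other classes, 7 were higher and 1 lower, against 21.4% and 12.7% of all such transcripts.

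The decay transcripts of SRSF1 and SRSF3 differed most between treatments relative to their spread among the leading decay isoforms. SRSF1-204 was at 21.3 and 18.2 TPM in JOA against 14.3 and 11.2 TPM in control. All JOA values lay above the controls (log2 change of TPM + 1 0.60, SE 0.19, limma adjusted p = 0.736). The coding transcripts SRSF1-205 and SRSF1-201 averaged 158 and 129 TPM in JOA against 157 and 132 TPM in control. SRSF1-204 held 5.04% of the gene's TPM over the 4 libraries.

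SRSF3-203, which carries the SRSF3 exon printed above, was at 53.7 and 70.5 TPM in JOA against 44.7 and 40.8 TPM in control (log2 change 0.52, SE 0.17, limma adjusted p = 0.739). The leading coding isoform SRSF3-208 was at 168 and 184 TPM in JOA against 173 and 172 TPM in control, so its groups overlapped and the decay isoform's did not. SRSF7-208, with the retained intron 3, was at 116 and 115 TPM in JOA against 108 and 79.7 TPM in control (log2 change 0.31, SE 0.17, limma adjusted p = 0.771). Its coding partner SRSF7-202 was at 69.4 and 72.8 TPM in JOA against 80.2 and 110 TPM in control, below both controls (-0.40, SE 0.18, limma adjusted p = 0.747). The SRSF7 gene total overlapped between treatments, and the 2 controls differed from each other by more than the treatments' nearest values did.

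The poison-exon isoforms of TRA2B and SRSF6 overlapped between treatments. TRA2B-206 was at 57.0 and 58.6 TPM in JOA against 48.1 and 57.2 TPM in control, so the higher control lay between the JOA values. The coding TRA2B-205 was lower in both JOA libraries, at 67.8 and 69.4 TPM against 69.9 and 70.7 TPM (-0.03, SE 0.11, limma adjusted p = 0.969). So was the coding TRA2B-203, at 43.0 and 41.7 TPM in JOA against 45.2 and 60.1 TPM in control (-0.29, SE 0.17, limma adjusted p = 0.786). SRSF6-202 was at 173 and 155 TPM in JOA against 177 and 135 TPM in control, while the coding SRSF6-201 was at 65.7 and 65.8 TPM in JOA against 55.6 and 52.1 TPM in control (log2 change 0.28, SE 0.11, limma adjusted p = 0.739). In SRSF6, the coding isoform was therefore the one that did not overlap, and it was higher with JOA.

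In CLK1, the isoform that skips exon 4 was above the full coding one in each of the 4 libraries. CLK1-204 was at 23.5 and 31.4 TPM in JOA against 22.3 and 16.7 TPM in control, and CLK1-201 at 19.7 and 22.9 TPM in JOA against 18.4 and 14.2 TPM in control. Both were higher in both JOA libraries (log2 changes 0.47, SE 0.22, limma adjusted p = 0.749, and 0.38, SE 0.19, limma adjusted p = 0.757). CLK1-210, which keeps the introns on either side of exon 4, was at 17.02 and 6.75 TPM in JOA against 18.3 and 4.60 TPM in control. Its values separated the first library of each treatment from the second and not the treatments. The short CLK1-203, which starts downstream of exon 4, was at 8.91 and 7.44 TPM in JOA against 11.2 and 6.63 TPM in control.

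**Figure D3:**
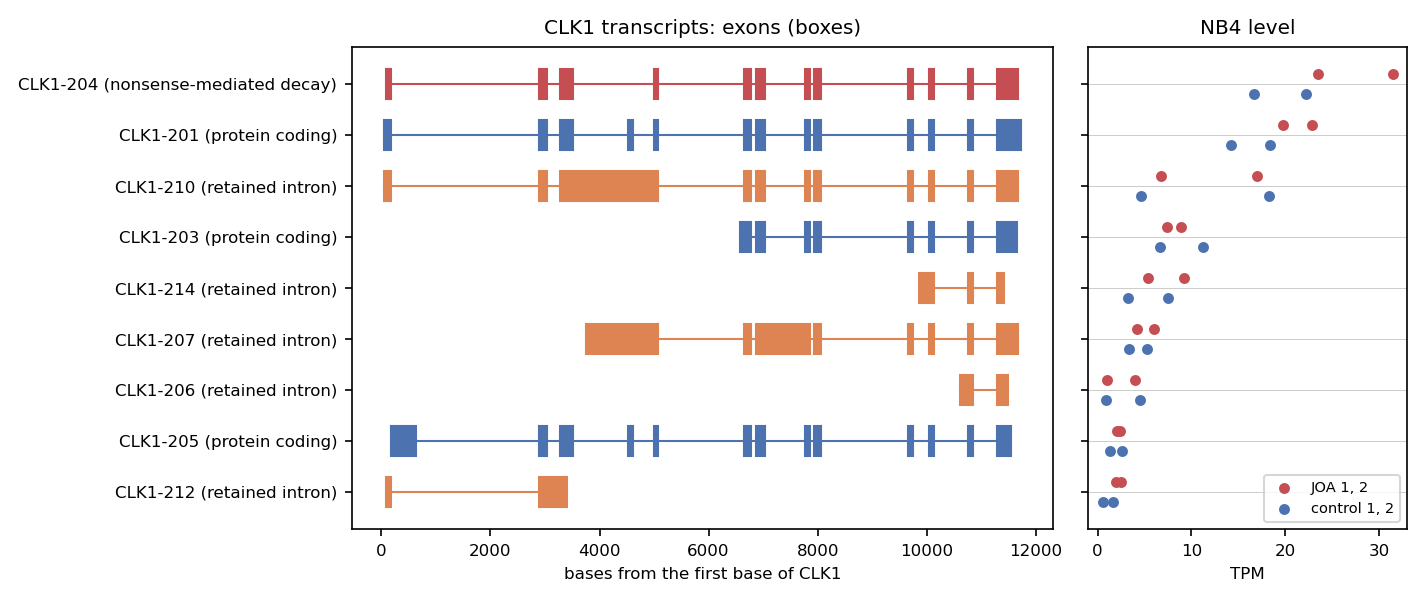
Left, exons (boxes) of the CLK1 transcripts with a mean of at least 1 TPM in NB4, by distance in bases from the first base of the gene, coloured by class; right, their TPM in each library, JOA above control within a row. CLK1-204 lacks exon 4, CLK1-210 spans it with the introns on both sides, and the values of CLK1-204 and CLK1-201 are higher in JOA while those of CLK1-210 split by library.

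In SRSF5 the leading coding isoform did not overlap and the retained-intron isoform did. SRSF5-217, the leading coding isoform of SRSF5, was at 105 and 125 TPM in JOA against 67.4 and 85.3 TPM in control (log2 change 0.58, SE 0.17, limma adjusted p = 0.731). SRSF5-212, with intron 5 kept, was at 75.3 and 51.6 TPM in JOA against 78.8 and 31.1 TPM in control, and its groups overlapped. In TRA2A, the retained-intron record TRA2A-209 was at 41.4 and 44.8 TPM in JOA against 44.2 and 36.9 TPM in control, and the coding TRA2A-201 at 36.7 and 38.3 TPM in JOA against 34.4 and 44.4 TPM in control. The leading transcripts of SRSF11 and SRSF2 also overlapped: SRSF11-204 averaged 32.1 TPM in JOA and 35.0 TPM in control, and SRSF2-201 283 TPM in JOA and 352 TPM in control. The longer coding SRSF2-202 averaged 174 TPM in JOA and 185 TPM in control (-0.09, SE 0.10, limma adjusted p = 0.897). Its higher JOA value and its lower control value were both at 179 TPM. The coding SRSF11-202 did not overlap, at 23.8 and 29.4 TPM in JOA against 20.9 and 19.7 TPM in control (0.37, SE 0.16, limma adjusted p = 0.743). SRSF11-205, a noncoding transcript named after its values were seen because it had the lowest p of the member transcripts, was at 13.8 and 23.5 TPM in JOA against 6.10 and 7.73 TPM in control (1.27, SE 0.29, limma adjusted p = 0.731).

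At the level of whole genes, NB4 showed no change that passed the test. The fit called 0 of the 10 members and 1 of 12941 genes (0.00773%), and at an unadjusted p under 0.05 it marked 1 member and 1375 genes in all (10.6%). The member was SRSF5, at 378 and 369 TPM in JOA against 329 and 269 TPM in control, with both JOA values above both controls (log2 change 0.33, SE 0.12, limma adjusted p = 0.404). SRSF3, SRSF11 and TRA2A were likewise higher in both JOA libraries, so 4 of 10 genes did not overlap, against 32.5% of all genes in that direction, and 0 were lower in both, against 11.0%. The median log2 change was 0.10 over the members and 0.08 over all genes, so the members' median was near that of all genes.

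TRA2A, a splicing activator related to TRA2B, was at 151 and 178 TPM in JOA against 141 and 133 TPM in control (log2 change 0.26, SE 0.11, limma adjusted p = 0.480). SRSF11 was at 218 and 238 TPM in JOA against 205 and 188 TPM in control (0.21, SE 0.10, limma adjusted p = 0.510). SRSF3 was at 440 and 457 TPM in JOA against 425 and 435 TPM in control (0.06, SE 0.09, limma adjusted p = 0.831), and this difference turned to -0.04 when libraries were scaled by median ratios. CLK1 was at 93.3 and 87.2 TPM in JOA against 88.3 and 56.1 TPM in control (0.35, SE 0.19, limma adjusted p = 0.560). The low value was the second control, and the other three libraries lay close together.

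The remaining genes overlapped. SRSF2, which had the highest TPM of the 10, was at 651 and 537 TPM in JOA against 619 and 703 TPM in control. SRSF1 was at 318 and 334 TPM in JOA against 327 and 309 TPM in control, SRSF7 at 278 and 292 TPM in JOA against 283 and 297 TPM in control, and TRA2B at 248 and 245 TPM in JOA against 241 and 269 TPM in control. SRSF6 was at 239 and 221 TPM in JOA against 233 and 187 TPM in control. By TPM, which is per length, the order of the control means was SRSF2, SRSF3, SRSF1, SRSF5, SRSF7, TRA2B, SRSF6, SRSF11, TRA2A and CLK1. The control range of SRSF5 overlapped those of SRSF1, SRSF7 and TRA2B, and the control ranges of SRSF6 and SRSF11 overlapped.

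In Kasumi-1, 0 of the 5 members and 0 of 12101 features passed the unpaired test (limma adjusted p under 0.05, 0% called), and at an unadjusted p under 0.05 0 members and 1982 features (16.4%) did. Libraries with the same replicate number deviated together in this line, and with the number as a block the fit called SRSF1 lower with JOA. SRSF1 was at 56.5, 63.5 and 58.7 FPKM in JOA against 62.9, 78.7 and 66.6 FPKM in control, lower in each of the 3 pairs, although the highest JOA library lay above the lowest control. The log2 change of FPKM + 1 was -0.21 (SE 0.09, limma adjusted p = 0.309 without the block; SE 0.04, adjusted p = 0.0493 with it). In the paired fit 8.14% of all features were called, and 2.06% were called lower. The call was lost without any 1 pair, at a limma adjusted p of 0.102 without the first, 0.0949 without the second and 0.123 without the third. The changes were then -0.24, -0.17 and -0.23, and the features called in all fell from 985 to 73, 236 and 0. With the block and median-ratio scaling, a fit added after seeing the data, the change was -0.28 (SE 0.04, limma adjusted p = 0.0307).

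The other Kasumi-1 members did not pass either fit. CLK1 was at 20.5, 23.5 and 15.03 FPKM in JOA against 17.1, 22.9 and 13.1 FPKM in control. Each JOA library lay above its pair, and the pairs differed from each other by more than the treatments did (0.16, SE 0.22, limma adjusted p = 0.761, or 0.127 with the block). Each of the 5 members rests on 1 row labelled with 1 RefSeq record, which may not stand for all isoforms of the gene. The row that carries CLK1 is labelled with a noncoding RefSeq record, so it may not represent the coding isoform. SRSF2 was at 52.4, 60.7 and 51.6 FPKM in JOA against 50.7, 60.4 and 54.0 FPKM in control (0.00). SRSF6 was at 69.8, 72.8 and 78.7 FPKM in JOA against 61.0, 70.1 and 81.3 FPKM in control (0.07), and TRA2A at 24.1, 23.0 and 26.7 FPKM in JOA against 22.6, 22.9 and 26.7 FPKM in control (0.03). With median-ratio scaling the changes of SRSF6 and TRA2A were -0.00 and -0.03. No member had groups apart, against 16.0% of features higher and 7.10% lower with JOA, and the median change was 0.03 over the 5 members and 0.05 over all features.

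**Figure D4:**
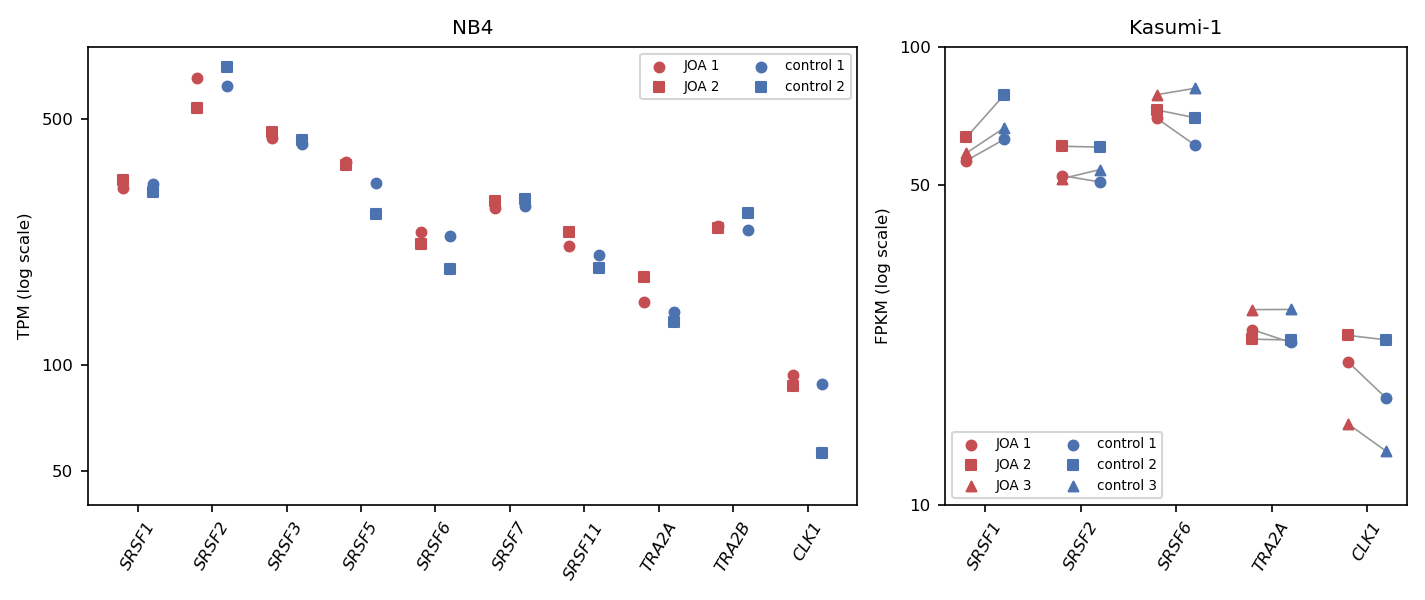
Level of each gene by library (y axis, log scale) in NB4 (TPM, left) and Kasumi-1 (FPKM, right), JOA in red left of control in blue; lines join Kasumi-1 libraries with the same replicate number. SRSF5, SRSF3, SRSF11 and TRA2A are higher in both NB4 JOA libraries, and SRSF1 is lower in the JOA library of each Kasumi-1 pair; the unit differs between the panels and levels cannot be set across them.

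The response to JOA was compared between the lines as Kasumi-1 change minus NB4 change, in 1 fit over the 10 libraries. The measures are not alike: a member's Kasumi-1 value is 1 row labelled with 1 RefSeq record, and its NB4 value sums all its listed transcripts. The fit called 14 of 7150 shared genes (0.196%) and 0 of the 5 members, whose limma adjusted p ranged from 0.489 to 0.911. The largest difference in size was that of SRSF1, -0.25 (SE 0.13), where the Kasumi-1 change was -0.21 and that of NB4 was 0.04. For CLK1 it was -0.20 (SE 0.33), for TRA2A -0.23 (SE 0.14), for SRSF2 0.15 (SE 0.16) and for SRSF6 -0.07 (SE 0.17).

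Genes of the same pathway, grouped by function, passed no unpaired test in either line. Of the 12 other SR proteins, such as SRSF4, SRSF9 and SRRM2, 0 of 11 tested were called in NB4 and 0 of 5 in Kasumi-1, with a median log2 change of 0.11 and -0.01. Of the 9 SR protein kinases and phosphatases, 0 of 9 in NB4 and 0 of 5 in Kasumi-1 were called (medians 0.13 and -0.04). CLK2, a kinase of the CLK1 family, was at 51.2 and 53.1 TPM in JOA against 46.5 and 41.6 TPM in control in NB4. PPP1CA, a phosphatase subunit, was at 89.1, 94.3 and 89.8 FPKM in JOA against 101, 102 and 96.3 FPKM in control in Kasumi-1, lower in every JOA library (-0.13, SE 0.05, limma adjusted p = 0.274). Of the 4 factors of SR protein import, 0 of 4 in NB4 and 0 of 3 in Kasumi-1 were called unpaired (medians 0.03 and -0.04). Among them RAN, the GTPase of nuclear transport, was at 93.9, 100.1 and 99.4 FPKM in JOA against 116, 119 and 114 FPKM in control in Kasumi-1 (-0.25, SE 0.05, limma adjusted p = 0.142 unpaired and 0.0359 with the block). The fit with the block called 8.14% of all features. TNPO3 (34.4 FPKM in JOA and in control) and RANBP2 (120.8 FPKM in JOA, 124.9 FPKM in control) overlapped there. RAN in NB4 was at 1182 and 1231 TPM in JOA against 1189 and 1176 TPM in control.

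Among 22 hnRNP proteins, which often oppose SR proteins at exons, 0 of 22 in NB4 and 0 of 8 in Kasumi-1 were called. HNRNPH1 was at 1050 and 1135 TPM in JOA against 982 and 781 TPM in control in NB4 (0.32, SE 0.13, limma adjusted p = 0.454), and HNRNPR averaged 43.1 FPKM in JOA and 49.0 FPKM in control in Kasumi-1 (-0.18, SE 0.06, limma adjusted p = 0.221). Of 18 spliceosome factors, 0 of 18 in NB4 and 0 of 11 in Kasumi-1 were called. SF3B1, which recognises the branch site, was at 284 and 324 TPM in JOA against 243 and 225 TPM in control in NB4 (0.37, SE 0.11, limma adjusted p = 0.316). Of 14 decay factors, 0 of 14 and 0 of 8 were called. SMG5, which helps dismantle decay targets, averaged 42.9 FPKM in JOA and 37.8 FPKM in control in Kasumi-1, higher in every JOA library (0.18, SE 0.06, limma adjusted p = 0.254). MAGOH, a subunit of the exon junction complex, averaged 26.9 FPKM in JOA and 29.1 FPKM in control there, lower in every JOA library (-0.11, SE 0.05, limma adjusted p = 0.358).

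As a description of likeness, the genes whose levels followed CLK1 most closely across the 10 libraries were IPO5P1 (Pearson r = 0.987), IP6K2 (0.977), FOXO3 (0.968), RBM48 (0.964) and NUP153 (0.963). Values were centred within each line, 5661 genes were compared, and same-numbered Kasumi-1 libraries deviated together, so the points are not independent. The other four members measured in both lines followed CLK1 weakly, from -0.08 for TRA2A to 0.29 for SRSF1.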

How the data were processed

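Per the labels' protocols, RNA was extracted with Trizol and made into stranded mRNA libraries. Trimmomatic, HISAT2, Cufflinks, HTSeq and hg38 are named in the submitters' processing notes, and versions are not given in the sources used here. The authors deposited 1 table per line. The Kasumi-1 table holds FPKM, as the deposited file is named, over 29053 rows, of which 37.5% were matched to a symbol. The depth of its libraries, from the steps between low values, was 91.4 to 100% of that of control 1. The deposited NB4 columns, also named for FPKM, sum to between 999679 and 999758 and were taken as TPM, where the design had assumed FPKM, so their depth is unknown. Of the NB4 transcripts 93.9% were matched to GENCODE v29 and the unmatched held 3.04% of the TPM. Class shares rest on annotated biotypes and on how the authors' quantification split reads among overlapping isoforms.

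Tests used limma 3.58.1 (R 4.3.3, Python 3.11.15) on log2(value + 1), or on percent shares of genes at 5 TPM or more, computed from the deposited TPM. Features needed a value of at least 1 in 3 Kasumi-1 or 2 NB4 libraries, and a call needed an adjusted p (Benjamini-Hochberg, over the whole table) under 0.05. A log2 change on this scale understates changes of low values. The scripts were tested on simulated data. With 2 libraries a group in NB4, an absence of calls is not evidence of an absence of change. The members and lists were chosen with earlier results of these data known. All members were named, with at most 4 transcripts each by mean level, and at most 3 genes per list by lowest p. One marker of another cell type is not reported here.

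In Kasumi-1, each JOA library was compared with each control by the correlation of their deviations from the group mean. It was 0.330, 0.500 and 0.424 for equal numbers, and equal numbers were therefore treated as pairs. For unequal numbers it was no higher than -0.06. Deviations within a group cancel out, so positive values for equal numbers force negative ones for unequal numbers on average. The latter are no separate support. The pairing rests on the same values that the block was then fitted to and not on a label, so paired calls are not independent of it. Alternatives were another pseudocount, no filter, median-ratio scaling, a replicate block, a spread shared over both lines, other share filters and scales, and each library left out. Fits that join the block with median-ratio scaling, or leave out a pair, were added after seeing the data.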

Additional observations from a re-analysis of the deposited data

How the results depend on the processing

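No member changed its call except SRSF1 in Kasumi-1. The count of features called there was 0 unpaired, 985 with the replicate block, 1118 with the block and median-ratio scaling, 4 with a spread shared over both lines, 0 with any library left out, and 73, 236 and 0 with the block and pair 1, 2 or 3 left out. In NB4 the deviations of same-numbered libraries correlated weakly (0.0676), and no label says whether these libraries are pairs. With 2 libraries a group, unequal numbers give the same value with the opposite sign, so the correlation cannot decide it. The main NB4 fit called 1 gene. It called 0 with a pseudocount of 0.1, without the filter or with median-ratio scaling, and 158 with the replicate block. The count was 1 with the block and median-ratio scaling, 155 with a shared spread, and 11 to 119 with a library left out. The difference between lines moved to 2 calls with a pseudocount of 0.1, 33 without the filter, 37 with the block and 2 to 97 with a library left out. Share and transcript tests stayed at 0. The block changed no other member's call. The fits with a shared spread tested only the 7150 genes shared by both lines. The main fits tested 12941 genes in NB4 and 12101 features in Kasumi-1, so these counts do not rest on the same set.

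Uncalled log2 changes turned in sign with median-ratio scaling, with or without the block, to -0.000314 (SRSF6) and -0.0347 (TRA2A) in Kasumi-1, and to -0.0646 (SRSF1), -0.0391 (SRSF3) and -0.00944 (SRSF6-202) in NB4. That scaling moved the median of all NB4 genes to -0.00472. The decay share of SRSF5 turned to -0.00254 on the logit scale. The causes were not tested.

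With libraries left out, changes crossing 0 ranged as follows on the log2 scale: in Kasumi-1 from -0.0323 to 0.349 (CLK1), -0.0777 to 0.0637 (SRSF2; 0.0257 with the block and without pair 3), -0.0340 to 0.170 (SRSF6) and -0.0270 to 0.104 (TRA2A). In NB4 they ranged from -0.00502 to 0.0760 (SRSF1), -0.0203 to 0.297 (SRSF6), -0.0587 to 0.00853 (SRSF7), -0.125 to 0.0347 (TRA2B) and -0.113 to 0.281 (SRSF6-202). Between lines they ranged from -0.520 to 0.125 (CLK1) and -0.230 to 0.0872 (SRSF6). Decay shares ranged from -2.30 to 8.83 points (CLK1), -1.81 to 1.17 (SRSF2), -0.136 to 0.238 (SRSF5) and -2.76 to 1.17 (TRA2A). Coding shares ranged from -4.05 to 1.01 (SRSF3) and -6.31 to 6.18 (SRSF5). Retained-intron shares ranged from -9.27 to 7.17 (CLK1), -0.179 to 0.888 (SRSF1), -0.196 to 4.18 (SRSF2), -6.74 to 1.64 (SRSF3), -9.34 to 6.31 (SRSF5), -0.711 to 0.348 (SRSF7), -2.36 to 15.4 (TRA2A) and -1.40 to 1.81 (TRA2B). With 2 libraries a group, single NB4 libraries set these signs.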
